A study of Mus musculus with 4 samples.

Results

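Alveolar macrophages are the resident phagocytes of the airspace, and 10 of their characteristic genes (Marco, Ctsk, Siglecf, Pparg, Fabp4, Fabp5, Chil3, Krt79, Itgax and Cidec) are described here in lung tumours of Nrf2 knockout and wild-type mice. The 10 genes, of 35275 identifiers in the deposited table, were chosen by their measured values in this contrast because they split in it, with Marco lower and Ctsk higher in the knockout. Their differences between genotypes are therefore given as a description, without a test. All mice were Balb/c and had been injected with the lung carcinogen vinyl carbamate at 16 mg/kg in 2 or 4 doses. The groups were tumours of Nrf2 -/- mice (Nrf2 KO 1 and 2) and tumours of Nrf2 +/+ mice (WT 1 and 2). Each library was made from a pool of 3 to 4 tumours taken 40 to 44 weeks after the first exposure, and lung without carcinogen was not analysed here. The series refers to 2 mice of each genotype, but the labels do not say whether the tumours of a pool came from 1 mouse, so n counts pools and an SD is the spread between them. The labels do not give the knockout allele, or the number of doses, weeks and tumours of each sample.

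Alveolar macrophages settle in the lung around birth, when GM-CSF and TGF-beta induce the nuclear receptor PPAR-gamma, which sets their identity and their ability to clear surfactant lipid. In the mouse they are recognised by Siglec-F together with CD11c, which Itgax encodes. NRF2, the product of Nfe2l2, activates antioxidant and detoxification genes, and the scavenger receptor MARCO has been described as a target of NRF2 in macrophages.

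Values are FPKM, the fragments of a gene per kilobase of its length and per 1000000 fragments of the library (1 M). The libraries held about 17.98 and 16.89 M reads in Nrf2 KO 1 and 2 and 21.66 and 21.22 M in WT 1 and 2, as worked out from the values. The fold changes given are differences of mean log2(FPKM + 1), and a gene is said to be called, to rise or to fall where limma's p-value, adjusted over 13147 tested genes, was under 0.05, as it was for 0.114% of them. At an unadjusted limma p under 0.05, 1099 of the 13147 genes were higher and 921 lower in knockout tumours. The list counts below at that threshold stand against this background. Nfe2l2 fell to 3.66 and 2.96 FPKM in knockout tumours, against 96.3 and 87.9 FPKM in wild-type tumours, with a log2 fold change of -4.44 ± 0.13 (SE; limma adjusted p = 0.000378). The summed haemoglobin genes stood at 1186 and 1084 FPKM in knockout tumours and at 244 and 486 FPKM in wild-type tumours. Since each library is bulk tissue, fewer cells of a type and less RNA per cell cannot be told apart.

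The defining markers of alveolar macrophages were present in all 4 libraries. Of the 10 genes, 8 had a mean of at least 8.53 FPKM over the libraries. In order of mean level, Chil3 was highest at 620 FPKM, followed by Fabp5 (67.9), Fabp4 (65.2), Ctsk (56.1), Itgax (28.5), Siglecf (15.7), Marco (10.3), Pparg (8.53), Krt79 (0.801) and Cidec (0.553 FPKM). Chil3 ranked the first and Itgax the fifth of the 10 in every library. Marco was the eighth in both knockout libraries, the sixth in WT 1 and the seventh in WT 2. Fabp5 was the second of the 10 in both wild-type libraries and the fourth in both knockout libraries.

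**Figure D1:**
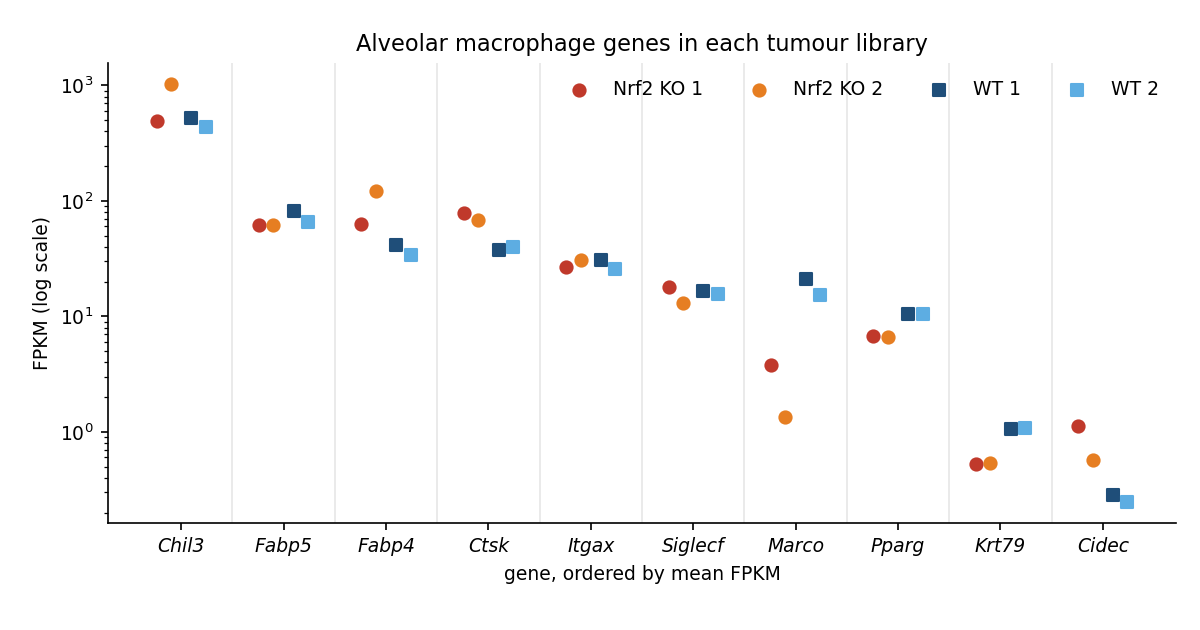
FPKM (log axis) of the 10 alveolar macrophage genes in each library, with knockout libraries as circles and wild-type libraries as squares. Marco lies at 1.34 to 3.78 FPKM in knockout tumours and at 15.4 to 20.9 FPKM in wild-type tumours, while Itgax and Siglecf overlap between genotypes.

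Promoter sequence was read for Marco and Ctsk, the members whose opposite values led to the choice, and for Pparg, whose product guides their differentiation. Of the 10 genes, 8 matched RefSeq's promoter windows (GRCm38.p6), with 11 annotated starts among them. The letters TGACNNNGC of the antioxidant response element, to which NRF2 binds with a small MAF protein, were searched on both strands from 250 bases before to 50 after each start. They occurred in 2 of the 11 windows and in 12.4% of all 32851 windows. The 250 bases before each start are printed 5′ to 3′ on the gene's strand, with a match to these letters in capitals.
Marco, chr1:120505025-120505274, minus strand: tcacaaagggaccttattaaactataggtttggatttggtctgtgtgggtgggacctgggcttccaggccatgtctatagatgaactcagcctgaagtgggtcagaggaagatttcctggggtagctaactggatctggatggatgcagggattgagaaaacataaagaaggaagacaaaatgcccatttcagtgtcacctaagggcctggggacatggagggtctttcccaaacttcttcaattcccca
Ctsk, chr3:95498960-95499209, plus strand: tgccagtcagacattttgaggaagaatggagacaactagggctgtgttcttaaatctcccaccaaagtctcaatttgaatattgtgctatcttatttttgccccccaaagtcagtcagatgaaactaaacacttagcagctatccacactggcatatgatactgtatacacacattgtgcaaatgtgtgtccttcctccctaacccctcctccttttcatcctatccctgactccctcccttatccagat
Pparg, second of 3 annotated starts, chr6:115362099-115362348, plus strand: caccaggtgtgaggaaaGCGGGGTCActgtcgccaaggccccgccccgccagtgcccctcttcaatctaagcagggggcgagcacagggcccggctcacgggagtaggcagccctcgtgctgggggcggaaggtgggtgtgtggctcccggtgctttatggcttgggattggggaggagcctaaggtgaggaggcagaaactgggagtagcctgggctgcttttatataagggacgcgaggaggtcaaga
The Marco and Ctsk windows held no match. That of Pparg lay on the opposite strand at -233 to -225 from the start, and the other match was in Itgax, at 19 to 27 after its start.

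Other elements of these cells were looked for in the same windows, again on both strands. The letters TGACTCA, bound by AP-1, were found in Itgax and in 1 of the 2 windows of Cidec (5.2% of all windows). GAGGAAGT, bound by the myeloid factor PU.1, was in 0 of the 11 windows (3.2% of all), and so was a pair of AGGTCA elements 1 base apart, the element of PPAR-gamma with RXR (0.0396% of all). A single AGGTCA was in 2 of the Pparg windows (16.3% of all), and TCANGTG, read by MITF and TFE factors, in that of Siglecf alone among the members (14.3% of all). A match or its absence describes letters in a short window and not binding.

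Marco (ENSMUSG00000026390, chr1:120474538-120505024, minus strand, GRCm38) encodes a class A scavenger receptor that takes up bacteria and inhaled particles. It stood at 3.78 and 1.34 FPKM in Nrf2 KO 1 and 2, against 20.9 and 15.4 FPKM in WT 1 and 2. Both knockout libraries lay far below both wild-type libraries, and the knockout libraries also differed from each other. The knockout mean was 2.56 ± 1.72 FPKM and the wild-type mean 18.1 ± 3.93 FPKM (SD, n = 2 each), a ratio of 0.141. On the scale of log2(FPKM + 1), the difference was -2.50 ± 0.34 (SE), the fifth lowest of 13147 genes tested. It was -1.99 without Nrf2 KO 2 and -3.02 without Nrf2 KO 1. The values correspond to at least 39 and 13 reads in the knockout libraries and 260 and 187 in the wild-type libraries. The read ratio was 0.143, and its 95% exact counting interval, 0.105 to 0.191, pools the reads of each genotype. That interval covers counting error only, not the difference between the knockout libraries, and is no test of the genotypes.

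Other scavenger receptors lay between -0.86 and 0.51 on the log2 scale. Msr1, the other macrophage class A receptor, stood at 5.14 and 4.17 FPKM in knockout tumours and 3.61 and 3.49 FPKM in wild-type tumours. Marco was 0.736 and 0.321 times Msr1 in the knockout libraries and 5.79 and 4.4 times Msr1 in the wild-type libraries. Because this contrast chose Marco, nothing is read from that ratio. Scara3, a class A member linked to oxidative stress, was at 6.24 and 5.48 FPKM in KO against 9.36 and 14.0 FPKM in WT tumours, with a log2 fold change of -0.86 ± 0.20 (SE; limma adjusted p = 0.165). Cxcl16, a membrane-bound chemokine that also binds oxidised lipoprotein, was at 20.4 and 22.1 FPKM in KO against 13.4 and 15.9 FPKM in WT tumours (0.51 ± 0.13; adjusted p = 0.177). Cd36, the fatty acid and lipoprotein receptor, had the highest level of the list and overlapped between genotypes at 251 and 257 FPKM in KO against 272 and 240 FPKM in WT tumours.

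Of 15 scavenger receptors other than Marco, 13 passed the filter on low values and limma called 0 at an adjusted p under 0.05. limma-voom on reads called 0 as well, and 1 was higher and 1 lower at an unadjusted p under 0.05. Their median log2 fold change was -0.01 (0.08 without WT 1 and -0.11 without WT 2), against 0 over all tested genes. Among genes flanking Marco, Insig2 (55.1 and 59.7 FPKM in KO against 60.4 and 61.0 FPKM in WT tumours) and Steap3 (2.02 and 3.43 FPKM in KO against 1.63 and 1.60 FPKM in WT tumours) had log2 fold changes of -0.08 and 0.48 (limma adjusted p = 0.749 and 0.357), and En1 was listed at 0.

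The 3 genes nearest to Marco in pattern were Gpx2, Gstm1 and Gsta3, which encode a glutathione peroxidase and glutathione S-transferases and are known targets of NRF2. Likeness was the Euclidean distance of log2(FPKM + 1), centred on each gene's mean over the 4 libraries, among 9641 other tested genes with a mean FPKM of at least 5. The distances were 0.81, 0.94 and 1.07, where a gene with no variation would lie at 2.62. This distance keeps the size of a change, so the genes nearest to Marco were bound to be other strongly lowered ones. A direct action of NRF2 on Marco was not tested. Gpx2 was at 1.46 and 1.28 FPKM in KO against 9.30 and 9.89 FPKM in WT tumours, and all 3 were called lower (limma adjusted p = 0.0108, 0.024 and 0.0108). The knockout libraries lay closer together for each of these genes than for Marco. Of the 10 tested NRF2 targets, these 3 fell and 0 rose by limma and by limma-voom, and the list median was -0.72. Slc7a11, 1 of the 10, passed the filter on low values through the wild-type libraries alone.

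Ctsk (ENSMUSG00000028111, chr3:95499256-95509362, plus strand) encodes cathepsin K, a collagen-degrading cysteine protease best known from osteoclasts. It was at 78.5 and 68.7 FPKM in knockout tumours and 37.5 and 39.6 FPKM in wild-type tumours. The genotypes did not overlap, and the replicates of each lay close together. The knockout mean was 73.6 ± 6.92 FPKM and the wild-type mean 38.5 ± 1.52 FPKM (SD, n = 2 each), a ratio of 1.91, and the log2 difference was 0.91 ± 0.11 (SE). It lay between 0.82 and 1.01 with any 1 library left out. The ratio of Ctsk to Marco was 20.8 and 51.2 in the knockout libraries and 1.79 and 2.58 in the wild-type libraries. Because both genes were chosen for their opposite values, nothing is read from this ratio.

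Other cathepsins and cystatins lay between -0.26 and 0.58 on the log2 scale. Ctss, which lies 17.4 kb downstream of Ctsk and serves antigen presentation, was at 211 and 226 FPKM in knockout tumours and 194 and 174 FPKM in wild-type tumours (log2 fold change 0.24 ± 0.12; limma adjusted p = 0.395). Ctsh, the most abundant, which also processes surfactant proteins, overlapped between genotypes, at 2173 and 1629 FPKM in KO against 1903 and 2423 FPKM in WT tumours. Ctsw, of cytotoxic lymphocytes, was at 3.84 and 3.32 FPKM in KO against 1.95 and 2.18 FPKM in WT tumours (0.58 ± 0.15; adjusted p = 0.193), and the inhibitor Cst3, cystatin C, at 971 and 1115 FPKM in KO against 736 and 789 FPKM in WT tumours (0.45 ± 0.16; adjusted p = 0.275). Of 11 tested cathepsins and cystatins other than Ctsk, limma and limma-voom called 0, the median was 0.10 (0.21 without Nrf2 KO 1 and 0.02 without Nrf2 KO 2), and 2 had an unadjusted p under 0.05, both higher. Arnt, 2.02 kb upstream of Ctsk, overlapped between genotypes (26.7 and 31.0 FPKM in KO against 34.6 and 30.4 FPKM in WT tumours).

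Ctsk is also made by osteoclasts and by fibroblasts. Among osteoclast genes, Mmp9, a gelatinase, was at 2.84 and 3.25 FPKM in KO against 1.03 and 1.35 FPKM in WT tumours, and Dcstamp, required for cell fusion, at 1.40 and 1.28 FPKM in KO against 0.51 and 0.52 FPKM in WT tumours. The limma adjusted p of Mmp9 was 0.125, and Dcstamp passed the filter on low values through the knockout libraries alone. The calcitonin receptor Calcr was at or below 0.0603 FPKM everywhere, and 0 of the 10 tested osteoclast genes were called by limma or limma-voom, with 3 higher at an unadjusted p under 0.05, Dcstamp among them, so that its entry into this count depended on its high values. Fibroblast and matrix markers summed to 1153 and 1462 FPKM in knockout libraries and 1227 and 941 FPKM in wild-type libraries. Their median log2 fold change was 0.59 over 11 tested genes (0.24 without WT 2, 0.36 without Nrf2 KO 2 and 0.91 without Nrf2 KO 1), with 0 called by either method and 4 at an unadjusted p under 0.05, all higher. Mfap5, a microfibril protein, was at 23.1 and 29.0 FPKM in KO against 10.9 and 10.8 FPKM in WT tumours (limma adjusted p = 0.0696). The part of these cells in the Ctsk values was not tested.

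The genes nearest to Ctsk in pattern were Mir142hg, the host transcript of the blood cell microRNA miR-142, Cd37, a tetraspanin of leukocytes, and mt-Nd4, a mitochondrially encoded subunit of respiratory complex I. Their distances were 0.03, 0.11 and 0.13, where a gene with no variation would lie at 0.92. Cd37 was at 15.3 and 13.6 FPKM in knockout tumours and 6.38 and 7.61 FPKM in wild-type tumours. The genes share high values in both knockout libraries with Nrf2 KO 1 above Nrf2 KO 2. Mitochondrially encoded genes took 2.91% and 2.23% of the implied reads in the knockout libraries and 1.37% and 1.69% in the wild-type libraries, and their part in these patterns was not tested.

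Siglecf and Itgax, the surface markers used to identify alveolar macrophages, overlapped between genotypes. Siglecf (chr7:43351341-43359531, plus strand), an inhibitory receptor that binds sialylated glycans, stood at 17.8 and 13.0 FPKM in knockout libraries and 16.5 and 15.7 FPKM in wild-type libraries. Itgax (chr7:128129547-128150657, plus strand), which encodes the integrin chain CD11c, stood at 26.9 and 30.5 FPKM in KO against 31.0 and 25.6 FPKM in WT tumours. For Siglecf, Nrf2 KO 1 lay above and Nrf2 KO 2 below both wild-type libraries, and for Itgax both knockout libraries lay between the wild-type ones. The log2 differences were -0.07 ± 0.16 for Siglecf and 0.02 ± 0.13 for Itgax (SE), and neither had a stable sign: Siglecf was at 0.14 without Nrf2 KO 2, and Itgax at -0.06 without Nrf2 KO 2 and -0.11 without WT 2. Set against Siglecf in the same library, Marco was 0.212 and 0.103 times as high in the knockout libraries. In the wild-type libraries Marco was 1.27 and 0.98 times as high as Siglecf. Ctsk was 4.41 and 5.29 times as high in KO against 2.28 and 2.53 times in WT libraries. Because this contrast chose Marco and Ctsk, nothing is read from these ratios.

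Siglecf also marks eosinophils, and Itgax dendritic cells. The 6 eosinophil markers summed to 0.607 and 5.58 FPKM in the knockout libraries and 0.301 and 0.245 FPKM in the wild-type libraries, 1 to 3 of them listed at 0 in each library. The peroxidase Epx was listed at 0 in all libraries but Nrf2 KO 2, where it stood at 0.495 FPKM, and Siglecf was lowest in that library. The part of eosinophils in the Siglecf values was not tested. Dendritic cell markers summed to 97.5 and 168 FPKM in KO against 72.2 and 54.4 FPKM in WT tumours. Of 8 tested, 0 were called by limma or limma-voom and 4 had an unadjusted p under 0.05, all higher, with a median log2 fold change of 0.65. Ccl22, a chemokine of mature dendritic cells, was at 12.8 and 21.5 FPKM in KO against 4.71 and 3.09 FPKM in WT tumours (limma adjusted p = 0.0921). The part of dendritic cells in the Itgax values was not tested.

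Genes related to these receptors were also measured. Siglec1, the sialoadhesin of resident macrophages, was at 4.98 and 3.43 FPKM in knockout tumours and 7.57 and 5.84 FPKM in wild-type tumours, and Cd33 at 10.1 and 8.80 FPKM in KO against 7.48 and 6.20 FPKM in WT tumours (limma adjusted p = 0.269 and 0.268). Of 6 tested siglecs other than Siglecf, limma and limma-voom called 0, and 1 was higher and 1 lower at an unadjusted p under 0.05. Itgb2, which encodes the beta chain that pairs with the product of Itgax, was at 87.8 and 73.8 FPKM in KO against 85.4 and 80.4 FPKM in WT tumours. Itgam, whose product pairs with the same chain and whose gene lies 11.1 kb from Itgax, was at 3.64 and 4.94 FPKM in KO against 3.60 and 2.20 FPKM in WT tumours (adjusted p = 0.40). Itgb7, of lymphocytes and mast cells, was at 8.60 and 11.1 FPKM in KO against 4.86 and 4.04 FPKM in WT tumours (adjusted p = 0.114). Of 5 tested integrin genes of leukocytes, 0 were called by limma or limma-voom and 1, Itgb7, was higher at an unadjusted p under 0.05.

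Pparg (chr6:115360951-115490399, plus strand), which encodes PPAR-gamma, was lower in knockout tumours. It stood at 6.72 and 6.56 FPKM in the knockout libraries and 10.4 and 10.5 FPKM in the wild-type libraries. The replicates of a genotype were nearly equal and the genotypes did not overlap. The mean was 6.64 ± 0.111 FPKM in knockout tumours and 10.4 ± 0.0782 FPKM in wild-type tumours (SD, n = 2 each), and the log2 difference was -0.58 ± 0.11 (SE), between -0.59 and -0.56 with any 1 library left out. With a pseudocount of 10 it was -0.30.

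Genes of the pathway that induces Pparg in alveolar macrophages were expressed in the bulk tumours of both genotypes. Which cells made them, or Pparg itself, was not tested. Csf2, which encodes GM-CSF, was at 5.28 and 3.18 FPKM in knockout tumours and 2.08 and 2.71 FPKM in wild-type tumours (limma adjusted p = 0.298). Tgfbr1, a TGF-beta receptor, was at 69.7 and 61.2 FPKM in KO against 86.1 and 84.0 FPKM in WT tumours (adjusted p = 0.233). Bhlhe41, a transcription factor of alveolar macrophages, was at 14.5 and 9.36 FPKM in KO against 6.58 and 7.67 FPKM in WT tumours (adjusted p = 0.253). Of the 17 genes of this list, limma and limma-voom called 0, and 3 were higher and 2 lower at an unadjusted p under 0.05, with a median log2 fold change of 0.11 (0.17 without WT 1). Among 10 PPAR and RXR receptors and cofactors, 0 were called by either method, and 0 were higher and 3 lower at an unadjusted p under 0.05. Ncoa1, a coactivator of nuclear receptors, was at 7.18 and 8.0 FPKM in KO against 10.8 and 9.45 FPKM in WT tumours (limma adjusted p = 0.272).

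Fabp4, Fabp5 and Cidec are lipid genes of alveolar macrophages, and Fabp4 and Cidec are known targets of PPAR-gamma in adipocytes. Fabp4 (chr3:10204088-10208576, minus strand), a fatty acid carrier, was at 62.9 and 122 FPKM in knockout tumours and 41.7 and 34.3 FPKM in wild-type tumours. The genotypes did not overlap, and Nrf2 KO 2 was far higher than the rest. The log2 difference was 1.19 ± 0.30 (SE), and it was 0.72 without that library and 1.66 without Nrf2 KO 1. Fabp5 (chr3:10012548-10016607, plus strand), a carrier also found in epithelium, was at 62.0 and 61.6 FPKM in KO against 82.0 and 65.8 FPKM in WT tumours. Both knockout libraries lay just below WT 2, the lower of the wild-type libraries. The log2 difference of -0.25 ± 0.13 (SE) was -0.09 without WT 1. The ratio of Fabp4 to Fabp5 was 1.01 and 1.98 in the knockout libraries and 0.509 and 0.52 in the wild-type libraries.

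Cidec (chr6:113424634-113435760, minus strand), which encodes a protein that enlarges lipid droplets, was at 1.12 and 0.568 FPKM in knockout tumours and 0.282 and 0.247 FPKM in wild-type tumours. It reached an FPKM of 1 in a single library and was therefore not in the fit. The values correspond to at least 23 and 11 reads in the knockout libraries and 7 and 6 in the wild-type libraries, a ratio of 3.22. The 95% exact counting interval of that ratio, 1.65 to 6.64, pools the reads of each genotype. It covers counting error only and is no test of the genotypes. The genotypes did not overlap, with few reads behind each value.

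Among 22 other genes of lipid droplets and lipid handling, 19 were tested and limma and limma-voom called 0. At an unadjusted p under 0.05, 3 were higher and 1 lower, and the list median was -0.01 (0.05 without WT 1). The 3 were Angptl4, an inhibitor of lipoprotein lipase, at 12.6 and 18.0 FPKM in KO against 6.62 and 4.82 FPKM in WT tumours, Hilpda, a droplet protein induced by hypoxia and lipid, at 15.4 and 16.1 FPKM in KO against 8.0 and 8.39 FPKM in WT tumours, and Plin2, the main droplet coat protein of macrophages, at 204 and 281 FPKM in KO against 158 and 136 FPKM in WT tumours. Their limma adjusted p was 0.114, 0.0757 and 0.189. The gene that was lower was Lpl, lipoprotein lipase (named after its values were seen), at 40.2 and 42.2 FPKM in KO against 56.4 and 53.1 FPKM in WT tumours (adjusted p = 0.189).

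Fabp4 is also expressed in fat and in capillary endothelium. Adipocyte markers were near 0, with sums of 0.420 and 0.852 FPKM in the knockout libraries and 0.498 and 0.287 FPKM in wild-type tumours. Lep and Cfd were listed at 0 throughout. Endothelial markers summed to 209 and 308 FPKM in KO against 227 and 135 FPKM in WT tumours. Nrf2 KO 2 was highest and WT 2 lowest for both Fabp4 and this sum, and Pecam1, a junction protein of endothelium, was at 35.6 and 69.4 FPKM in KO against 43.7 and 22.0 FPKM in WT tumours. Over 10 endothelial genes the median log2 fold change was 0.49 (0.14 without WT 2, 0.18 without Nrf2 KO 2, 0.75 without Nrf2 KO 1 and 0.82 without WT 1), with 0 called by limma or limma-voom and 3 at an unadjusted p under 0.05, all higher. The part of endothelium in the Fabp4 values was not tested. In the same gene cluster on chromosome 3, Pmp2 and Fabp9 were listed at 0, and Fabp12 was at 0.992 and 1.00 FPKM in KO against 1.73 and 0.504 FPKM in WT tumours. Fabp3, on chromosome 4, was at 1.49 and 1.80 FPKM in KO against 0.505 and 0.573 FPKM in WT tumours, and passed the filter through the knockout libraries alone, so no test of it is given.

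**Figure D2:**
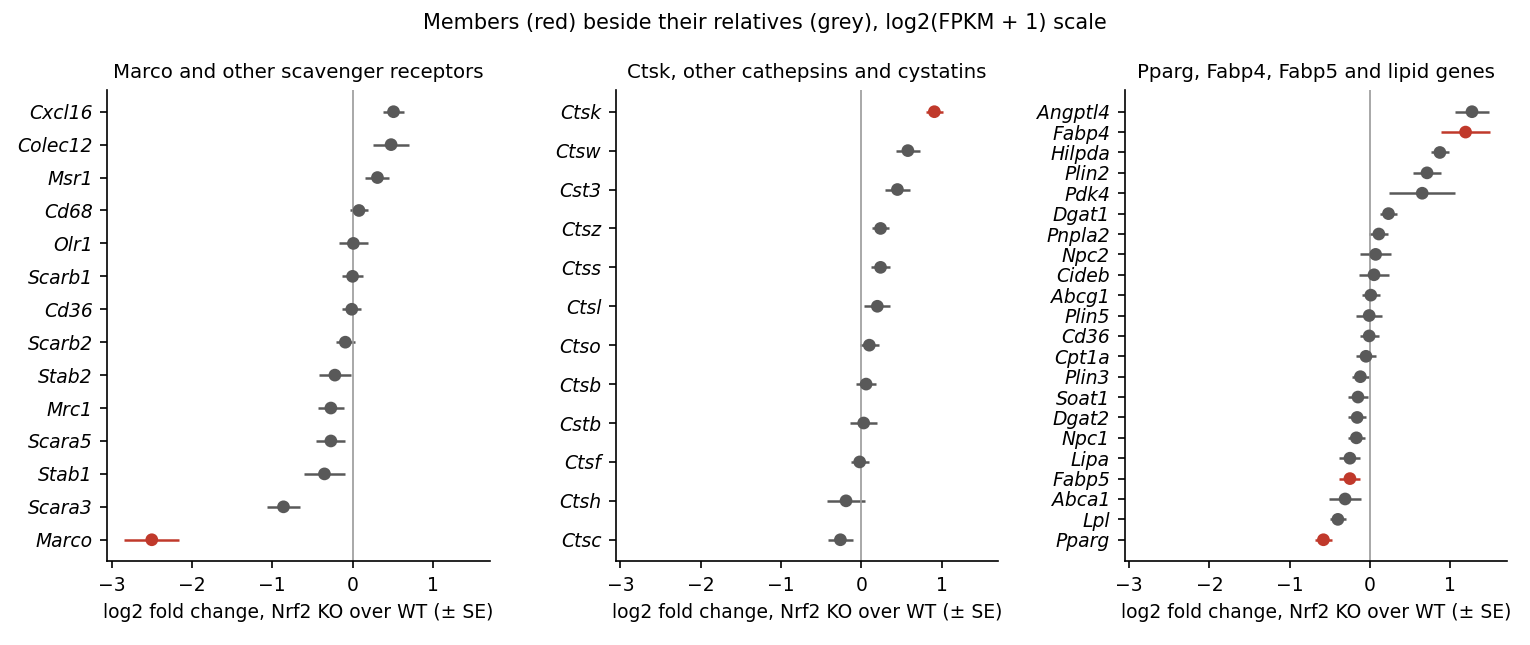
Log2 fold changes of Nrf2 KO over WT tumours (points, with bars of 1 SE) for Marco beside other scavenger receptors, Ctsk beside other cathepsins and cystatins, and Pparg, Fabp4 and Fabp5 beside genes of lipid handling. Members are red and relatives grey, and Marco, at -2.50, and Ctsk, at 0.91, lie outside the range of the relatives plotted beside them. Because this contrast chose Marco and Ctsk, nothing is read from that position.

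Chil3 (chr3:106147554-106167564, minus strand), which encodes the chitinase-like lectin Ym1, was the most abundant member and varied between knockout libraries. It stood at 487 and 1029 FPKM in Nrf2 KO 1 and 2 and at 526 and 436 FPKM in WT 1 and 2. Nrf2 KO 2 alone was high, while Nrf2 KO 1 lay between the wild-type libraries. The log2 difference was 0.56 ± 0.34 (SE), and 0.02 without Nrf2 KO 2. Its neighbours within the chitinase cluster of chromosome 3 (Chia1, 15.4 kb away, and Chil4, 33.9 kb away) were also highest in that library. Chia1, acidic mammalian chitinase, was at 8.72 and 282 FPKM in KO against 2.15 and 1.45 FPKM in WT tumours (log2 fold change 4.24 ± 1.40; limma adjusted p = 0.258). Chil4, which encodes Ym2 and is a close copy of Chil3, was at 0.0586 and 13.0 FPKM in KO against 0.0486 and 0.0496 FPKM in WT tumours, and reads shared by these copies may have been counted for either. Chil1, which lies on another chromosome and is the highest gene of the family, was at 3687 and 5874 FPKM in KO against 3615 and 3383 FPKM in WT tumours (adjusted p = 0.553). Chil1 and Chia1 were the tested genes of the family, and limma and limma-voom called 0 of them, with 1, Chia1, at an unadjusted p under 0.05.

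Krt79 (chr15:101929332-101940324, minus strand), a type II keratin that marks alveolar macrophages in expression profiles, was low in all libraries. It stood at 0.531 and 0.536 FPKM in knockout tumours and 1.06 and 1.08 FPKM in wild-type tumours. The replicates were nearly equal and the genotypes did not overlap, and the gene passed the filter on low values through the wild-type libraries alone. At an annotated transcript length these values were 20 and 19 reads in the knockout libraries and 48 and 48 in the wild-type libraries, a ratio of 0.50. The 95% exact counting interval of that ratio, 0.335 to 0.732, pools the reads of each genotype. It covers counting error only and is no test of the genotypes. The log2 difference of -0.43 ± 0.17 (SE) understates the ratio because of the pseudocount, and was -0.88 with a pseudocount of 0.1. The neighbouring keratin genes Krt4 and Krt78 stood at or below 0.0672 FPKM, and Krt8, an epithelial keratin of the same cluster, at 211 and 233 FPKM in KO against 236 and 257 FPKM in WT tumours.

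Of the 10 members, 9 passed the filter, Krt79 through the wild-type libraries alone. Both knockout libraries lay above both wild-type libraries for 2 of the 9 (22.7% of all tested genes), Ctsk and Fabp4, and below them for 4 (25.4% of all tested genes), Marco, Pparg, Fabp5 and Krt79. Because this contrast chose the genes, nothing is read from these counts.

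**Figure D3:**
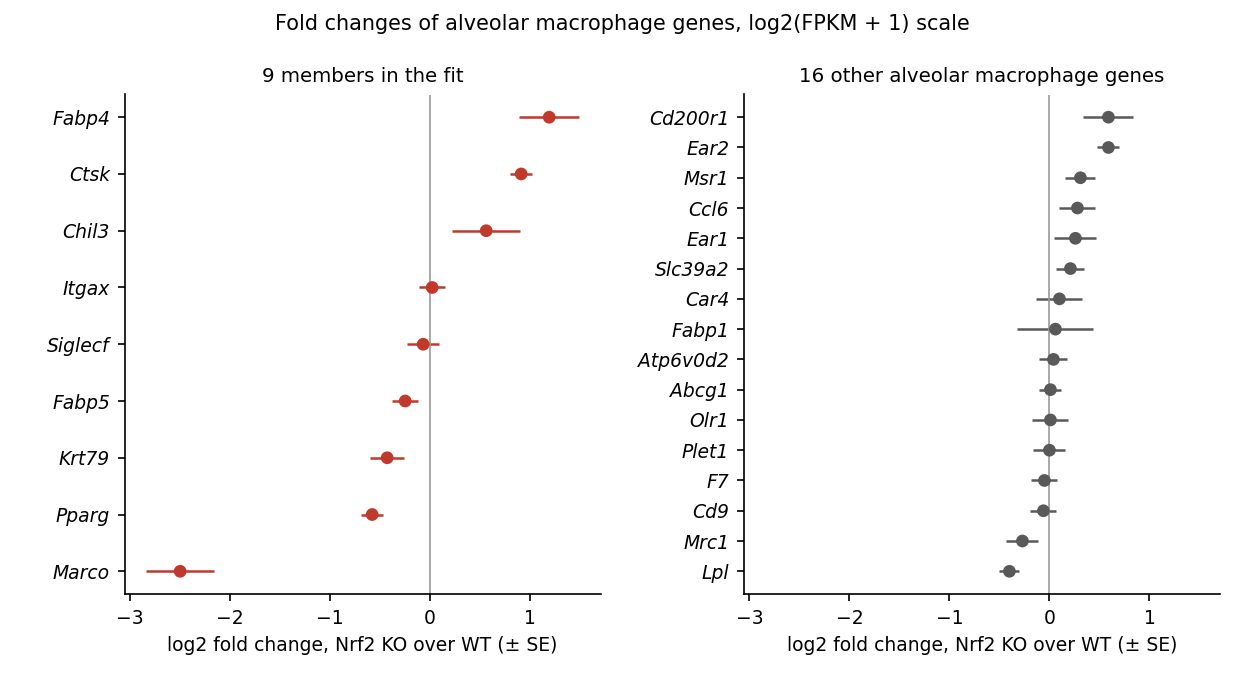
Log2 fold changes of Nrf2 KO over WT tumours (points, with bars of 1 SE) for the 9 members that passed the filter at left and for 16 other alveolar macrophage genes at right. The members range from -2.50 for Marco to 1.19 for Fabp4, and the other genes from -0.40 to 0.59. The members were chosen by this contrast, so nothing is read from their wider range.

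Other genes of alveolar macrophages had log2 fold changes between -0.40 and 0.59. Of 17 listed, 16 were tested, and limma and limma-voom called 0, with 1 higher and 1 lower at an unadjusted p under 0.05. For 10 of the 16 the genotypes overlapped, as they did for 6818 of all 13147 tested genes. In both knockout libraries 5 were higher (22.7% of all tested genes) and 1 was lower (25.4% of all tested genes). Nothing is read from these counts. The median log2 fold change was 0.05 (-0.09 without Nrf2 KO 1, -0.03 without WT 2, 0.21 without Nrf2 KO 2 and 0.13 without WT 1). Ear2, an eosinophil-associated ribonuclease that alveolar macrophages express, was at 216 and 220 FPKM in knockout tumours and 140 and 149 FPKM in wild-type tumours (log2 fold change 0.59 ± 0.11; limma adjusted p = 0.124), with reads that may be shared with other Ear genes. Ccl6, a chemokine, was the highest of the list at 631 and 472 FPKM in KO against 436 and 464 FPKM in WT tumours. The carbonic anhydrase Car4, at 69.1 and 115 FPKM in KO against 84.2 and 82.0 FPKM in WT tumours, and the clotting factor F7, at 36.4 and 29.0 FPKM in KO against 34.3 and 33.1 FPKM in WT tumours, were named after their values were seen, as genes known from these cells.

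Macrophage markers in general gave the scale on which the members can be set. Of 12 pan-macrophage markers, limma and limma-voom called 0, and 2 were higher and 0 lower at an unadjusted p under 0.05. The median log2 fold change was 0.08 (0.19 without Nrf2 KO 2, 0.16 without WT 1 and 0.05 without WT 2), and Aif1, an actin-binding protein of macrophages, differed most, at 7.11 and 7.07 FPKM in KO against 4.10 and 3.99 FPKM in WT tumours (limma adjusted p = 0.12). Subtracting the median log2 level of these markers in each library left Marco at -3.64 and -4.45 in the knockout libraries and -1.24 and -1.56 in the wild-type libraries. Ctsk was then at 0.42 and 0.45 in KO against -0.43 and -0.25 in WT libraries, and Pparg at -2.94 and -2.76 in KO against -2.19 and -2.07 in WT libraries. On this scale the genotypes did not overlap for these 3 genes, nor for Fabp4, Fabp5, Krt79 and Cidec, as before the subtraction. Because this contrast chose the members, nothing is read from that. Siglecf was at -1.66 and -1.87 in KO against -1.57 and -1.53 in WT libraries, so that both knockout libraries lay slightly below the wild-type ones, and Itgax overlapped, at -1.09 and -0.70 in KO against -0.70 and -0.86 in WT libraries.

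Of 15 tested markers of monocytes and interstitial macrophages, limma and limma-voom called 0, with 7 higher and 1 lower at an unadjusted p under 0.05 and a median log2 fold change of 0.36 (0.23 without Nrf2 KO 2). The elastase Mmp12 was at 35.0 and 61.4 FPKM in KO against 13.9 and 13.2 FPKM in WT tumours, arginase Arg1 at 25.2 and 39.9 FPKM in KO against 16.0 and 13.1 FPKM in WT tumours, and Gpnmb, a lysosomal glycoprotein of lipid-laden macrophages, at 28.5 and 20.8 FPKM in KO against 13.7 and 10.3 FPKM in WT tumours (limma adjusted p = 0.096, 0.148 and 0.14). Of 6 tested neutrophil markers, 3 rose (limma-voom called 2). They were S100a8 and S100a9, which encode calprotectin, and Csf3r, the receptor of G-CSF, at 13.8 and 14.1 FPKM in KO against 4.74 and 4.5 FPKM in WT tumours (limma adjusted p = 0.0108, 0.026 and 0.0255). Markers of alveolar type 2 cells and tumour epithelium had a median of -0.08 over 12 genes (-0.03 without Nrf2 KO 1, and -0.13 without Nrf2 KO 2 or WT 1), 0 of them called by limma or limma-voom, with 1 higher and 1 lower at an unadjusted p under 0.05. The part of these cell types in the members' values was not tested.

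**Figure D4:**
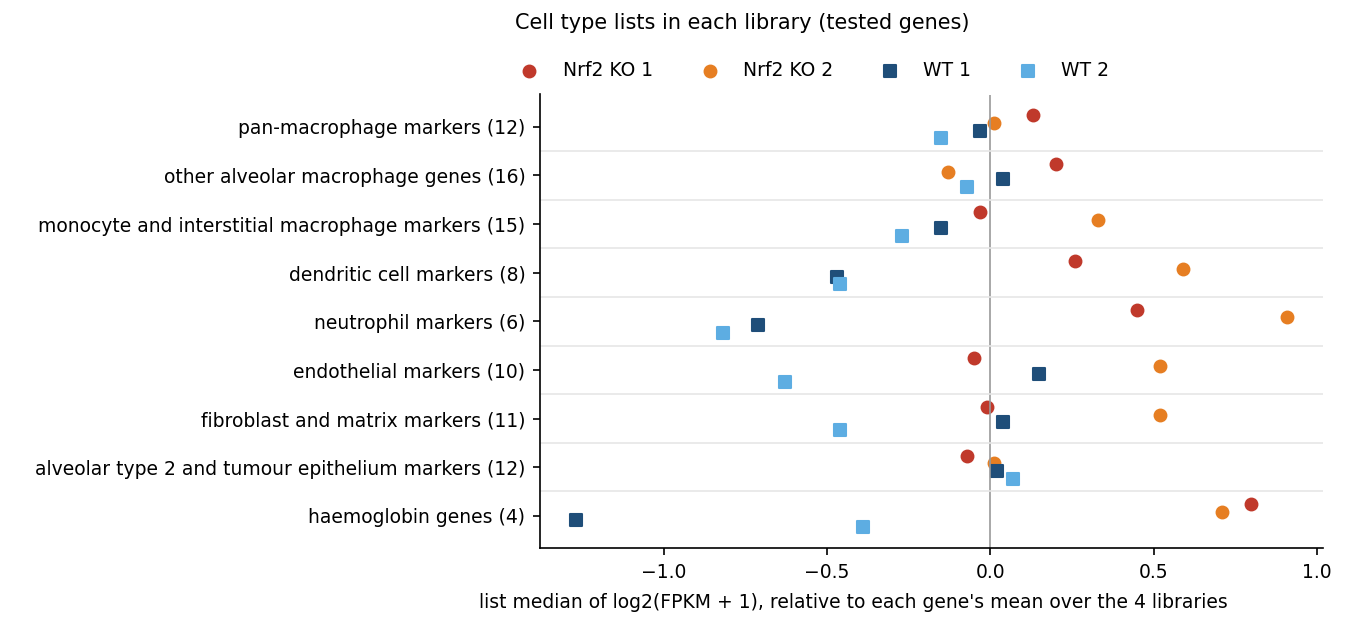
Median of each cell type list in each library, on the scale of log2(FPKM + 1) relative to each gene's mean over the 4 libraries, with the number of tested genes in brackets. Pan-macrophage and alveolar macrophage medians lie within -0.15 and 0.20 in all libraries. Medians of the haemoglobin, neutrophil, dendritic cell and monocyte lists, and narrowly the pan-macrophage list, are higher in both knockout than in both wild-type libraries. The median of alveolar type 2 and tumour epithelium markers is narrowly lower in both knockout libraries. Endothelial and fibroblast markers are highest in Nrf2 KO 2 and lowest in WT 2.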

How the data were processed

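RNA from pooled lung tumours was sequenced in 2 Nrf2 KO and 2 WT libraries, grouped by sample title. The authors deposited FPKM, a unit inferred here from the values. The submitters' processing notes name mm10, TopHat2 and DESeq2, but give no version or role for them. How reads were counted, with which annotation, gene lengths and strand setting, is not given in the sources used here. Of 35275 identifiers, 34490 matched a symbol, and coordinates are from GENCODE M21 (GRCm38).

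Whole reads were recovered by searching, for each gene, the length that made its 4 values whole (tolerance 0.0002 reads, plus 2e-08 per read and the file's rounding), which worked for all but 1 of 21601 genes above 0. For 5488 genes an annotated length fitted, and for 16112 the smallest length was taken, so their reads are lower limits. Intervals from reads cover counting error only.

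limma 3.58.1 (R 4.3.3) was run with an intensity trend on log2(FPKM + 1), over the 13147 genes that reached 1 FPKM in at least 2 libraries. P-values were adjusted by Benjamini-Hochberg and genes called at an adjusted p under 0.05. Fold changes on this scale understate those of low genes. With 2 against 2 libraries an exact two-sided permutation test cannot go below 0.333. P-values and SEs rest on the spread between these 4 pools, moderated by limma towards a trend over all tested genes. The residual degrees of freedom were 2 and those of the prior 4.12, so they do not measure a gene's own spread alone. The spread between pools may in part be technical.

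The members and gene lists were chosen with earlier results of these data known. Lists were described by counts and medians, without a set test. The text names the members, Nfe2l2, called genes of each list, up to 3 with the highest mean and up to 3 with the largest fold change, relatives of the members, flanking genes and the 3 genes nearest to Marco and to Ctsk in pattern. Alternatives were pseudocounts of 0.1 and 10, no filter, an FPKM of 5, quantile normalization, no trend, limma-voom on reads, the replicate block, each library left out and values relative to pan-macrophage markers.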

Additional observations from a re-analysis of the deposited data

How the results depend on the processing

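The number of genes called in knockout against wild-type tumours, 15, was 11 to 20 with either pseudocount, the stricter filter, quantile normalization or limma without the trend. It was 1 with no filter on low values, which adds 8454 genes, and 8 with limma-voom on recovered reads. With 1 library left out it ranged from 10 to 252, the highest without Nrf2 KO 1 (55 without Nrf2 KO 2), and the lone library was assumed to vary like the other group. Same-numbered libraries share only a number (correlation of their deviations -0.306). With the replicate block 69 genes were called, and with a crossed replicate block, added after the data were seen, 848.

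Over the alternatives, the log2 differences of Marco lay between -3.02 and -1.16 and of Ctsk between 0.77 and 1.01. Those of Pparg lay between -0.72 and -0.30 and of Fabp4 between 0.72 and 1.66, with no change of sign for any of them. For each of these genes both knockout libraries lay on the same side of both wild-type libraries. Leaving out a library, another pseudocount or another filter could therefore not change the sign, and nothing is read from its stability. The log2 differences of Siglecf (-0.29 to 0.14) and Itgax (-0.12 to 0.16), whose genotypes overlapped, changed sign, in 1 and 3 settings. Krt79 had a value in 11 of 14 settings. Its few reads, and those of Cidec and of Marco in knockout libraries, limit precision. Of the called genes named, Nfe2l2 was called in every fitted setting, and Gpx2, Gsta3 and Gstm1 in all but the one with no filter. S100a8, S100a9 and Csf3r were also lost there, S100a8 with limma-voom, S100a9 without the trend and Csf3r without WT 1 or WT 2.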
